A study of Saccharomyces cerevisiae with 48 samples.

Results

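The 10 genes described here build and direct the polarity axis of budding yeast: the GTPase gene CDC42, its activator and scaffold genes CDC24 and BEM1, the GTPase-activating protein genes BEM3, RGA1 and RGA2, the effector genes CLA4 and BNI1, the actin gene ACT1 and the myosin gene MYO2. They were picked by ORF name as genes of known function, with earlier results of these data known. Of the 10, 8 were among the 3301 genes with read counts, and CDC42 and BEM3 were found only in a table of pooled mRNA values for 6713 open reading frames (ORFs). The cells were of the diploid laboratory strain BY4743, grown in rich glucose medium, with no mutation or treatment separating the groups. Unbudded early G1 cells were separated from the culture by size in a centrifuge (elutriation) and left to grow until they reached 40, 45, 50, 55, 60, 65, 70 or 75 fl, so that larger cells were further through the division cycle. Each size had 3 replicates, named A, B and C, each a pool of elutriated fractions of the same size. From every pool 1 library was made from poly(A) mRNA and 1 from ribosome footprints, the mRNA fragments that ribosomes shield from nuclease, which makes 24 libraries of each kind and 48 in all. Every value is therefore an average over a pool of cells, and p-values measure the spread between these pools, which were described as independent.

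Cdc42 is a switch protein that marks the place of the future bud. Cdc24 loads it with GTP, Bem1 holds Cdc24 beside the active switch and a downstream kinase, and Bem3, Rga1 and Rga2 speed the hydrolysis of the bound GTP. Active Cdc42 acts through the p21-activated kinase Cla4 and the formin Bni1, which assembles actin into cables, and Myo2, a class V myosin, carries secretory vesicles along those cables into the bud.

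Levels are given on the log2 scale in CPM, the usual unit for reads scaled to a common library size, after trimmed-mean (TMM) scaling and with a prior count of 2. They compare 1 gene across libraries, not genes of different length. Counted mRNA reads ranged from 248840 to 5797532 per library with a median of 3280326.5, and footprint reads from 26360 to 5659096, with 6 footprint libraries under 150000. The shallowest mRNA libraries were those of 40 fl in B, at 248840 reads, and in C, at 515450. In these the counted members had 12 to 46 reads in B and 24 to 83 in C. Levels of mRNA at 40 fl therefore rest partly on few reads. In the authors' pooled mRNA values for cell cycle markers, the median of 5 G1/S genes was highest at 55 fl and that of 4 histone genes at 65 fl. The medians of 5 mitotic genes and of 3 M/G1 genes were both highest at 75 fl. None of 9 mating-type and auxotrophy genes was among the counted genes, so that the strain was not checked by them. A lower level in a pool can come from fewer cells that make the transcript or from less of it in each cell, which cannot be told apart here.

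Along cell size, 4 of the 8 counted members rose in mRNA, 1 fell, and 3 did not pass the test. MYO2 and ACT1 had the steepest fitted lines, which end 2.22-fold and 2.21-fold as high at 75 fl as they start at 40 fl. The fitted line of CDC24 ends 1.66-fold and that of RGA1 1.47-fold as high, and that of CLA4 ends at 0.65-fold. A straight line need not pass through the means of the end sizes: the mean of MYO2 was highest at 70 fl, and the mean of CLA4 was 7.05 ± 0.25 log2 CPM at 75 fl, against 6.99 ± 0.06 at 40 fl (SD, n = 3 each). These calls come from a slope per 5 fl in edgeR's quasi-likelihood test with an adjusted p below 0.05. The same test called 41.6% of the 3301 genes, made up of 19.4% that rose and 22.1% that fell. A second edgeR test, which asks only whether the 8 sizes differ, called 2 of the 8 members, MYO2 and CLA4, where it called 26% of all genes.

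**Figure D1:**
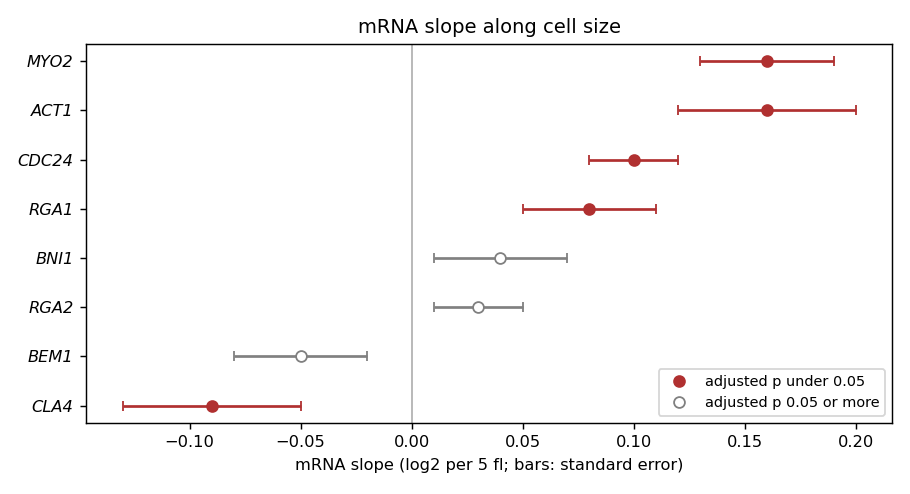
Slope of mRNA level along cell size for the 8 counted members, in log2 per 5 fl on the horizontal axis, with bars for the standard error and filled points for an adjusted p under 0.05. MYO2 and ACT1 stand farthest to the right at 0.16 each, and CLA4 farthest to the left at -0.09.

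CDC24 (YAL041W), the gene of the exchange factor that activates Cdc42, lies on chromosome I, 62840 to 65404, on the Watson strand (build R64, as are all positions given here). In order of size from 40 to 75 fl, its mRNA levels were 6.65, 6.88, 7.16, 7.05, 7.68, 7.59, 7.43 and 7.88 log2 CPM in replicate A. Replicate B gave 6.81, 7.25, 7.17, 7.21, 6.99, 7.59, 7.46 and 7.57 log2 CPM. Replicate C gave 7.15, 7.19, 7.31, 7.22, 7.25, 7.48, 7.63 and 7.58 log2 CPM. All 9 libraries of 65, 70 and 75 fl lay above all 12 libraries of 40 to 55 fl, and only the 60 fl library of replicate A reached into the upper range. The mean was 7.68 ± 0.18 at 75 fl, against 6.87 ± 0.25 at 40 fl (SD, n = 3 each). The slope was 0.10 per 5 fl (SE 0.02; edgeR adjusted p = 0.000298), and it was positive in every replicate, at 0.16, 0.08 and 0.07 in A, B and C. The test across sizes gave an adjusted p of 0.0509, just short of a call, and scaling by the median of ratios brought it to 0.0394.

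BEM1 (YBR200W), the scaffold gene on chromosome II, 620872 to 622527, had its lowest mRNA means at 60 and 65 fl. Its mRNA was highest at 45 fl, 5.93 ± 0.28 log2 CPM, and lowest at 60 fl, 5.28 ± 0.24 (SD, n = 3 each). Its values at 60 fl, 5.00, 5.38 and 5.45 in A, B and C, lay below its values at 45 fl, 6.03, 5.62 and 6.15. These sizes were picked by their means, and the lowest library lay at 60 fl in A, 65 fl in B (4.83) and 70 fl in C (5.06). Neither test passed: the slope was -0.05 (SE 0.03; edgeR adjusted p = 0.177), with an adjusted p of 0.359 across sizes.

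The counted genes for proteins that turn Cdc42 off were RGA1 (YOR127W, chromosome XV, 561170 to 564193) and RGA2 (YDR379W, chromosome IV, 1230167 to 1233196). RGA1 mRNA in A, B and C was 6.70, 7.15 and 5.69 log2 CPM at 75 fl, against 6.02, 5.71 and 5.73 at 40 fl. The values overlap because replicate C at 75 fl is as low as the smallest cells. The slope of RGA1 was 0.08 (SE 0.03; edgeR adjusted p = 0.0428), and this call was lost without replicate A, without replicate B or without the shallowest mRNA library, 40 fl B. RGA2 mRNA moved little: 7.55 ± 0.20 log2 CPM at 75 fl, against 7.04 ± 0.23 at 40 fl (SD, n = 3 each), and its slope was 0.03 (SE 0.02; edgeR adjusted p = 0.273).

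CLA4 (YNL298W) was the counted member with a falling slope that passed, and its lowest means lay at 65 and 70 fl, after a maximum at 45 to 50 fl and before a higher mean at 75 fl. The gene lies on chromosome XIV, 68915 to 71443, and codes for a p21-activated kinase that Cdc42 turns on at the bud. From 40 to 75 fl, CLA4 mRNA measured 7.04, 7.10, 7.22, 6.76, 6.60, 6.50, 6.70 and 7.08 log2 CPM in replicate A. It measured 7.02, 7.92, 7.41, 7.31, 7.33, 6.76, 6.70 and 7.29 log2 CPM in replicate B. In replicate C it measured 6.92, 7.45, 8.02, 7.89, 6.70, 6.49, 6.77 and 6.79 log2 CPM. The highest library was at 50 fl in A and C and at 45 fl in B, and every library of 65 and 70 fl lay below every library of 45 and 50 fl. Means were 6.58 ± 0.15 at 65 fl, against 7.55 ± 0.42 at 50 fl (SD, n = 3 each), a range of 0.97 over the 8 sizes. The sizes differed with an adjusted p of 0.0377, and the slope was -0.09 (SE 0.04; edgeR adjusted p = 0.0487). Both calls were lost when any of the replicates was left out, with an adjusted p across sizes of 0.0506 without A, 0.203 without B and 0.526 without C. The slope also missed the threshold under scaling by the median of ratios, with an adjusted p of 0.0596.

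BNI1 (YNL271C), the formin gene on chromosome XIV, 129522 to 135383, had 7.91, 8.02 and 7.58 log2 CPM at 75 fl in A, B and C, against 7.30, 7.63 and 7.29 at 40 fl. Its lowest mean was at 60 fl, 7.23 ± 0.19 (SD, n = 3). The size groups overlap, and neither the slope of 0.04 (SE 0.03; edgeR adjusted p = 0.174) nor the test across sizes (adjusted p = 0.514) passed.

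ACT1 (YFL039C), the gene of yeast actin, lies on chromosome VI, 53260 to 54696, on the Crick strand. Its mRNA in replicate A, from 40 to 75 fl, was 7.14, 7.04, 7.61, 7.39, 7.06, 7.82, 8.08 and 7.43 log2 CPM. Replicate B had 6.37, 6.21, 7.45, 7.43, 7.39, 7.34, 7.22 and 8.39 log2 CPM. Replicate C had 5.63, 6.23, 6.39, 7.64, 7.70, 7.46, 7.09 and 7.03 log2 CPM. In B and C the 40 and 45 fl libraries stood well below the libraries of 55 fl and larger, whereas in A the smallest cells were already near the level of the larger ones. The mean was 7.62 ± 0.69 at 75 fl, against 6.38 ± 0.75 at 40 fl (SD, n = 3 each). The slope was 0.16 (SE 0.04; edgeR adjusted p = 0.00347), positive in A, B and C at 0.10, 0.22 and 0.20. Without replicate B the slope was 0.14 with an adjusted p of 0.0547. Over all 3 replicates the test across sizes did not pass in edgeR (adjusted p = 0.115), but it passed with DESeq2 (adjusted p = 0.0209) and, in edgeR, without replicate A (adjusted p = 0.0155).

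MYO2 (YOR326W), the myosin that hauls cargo along actin cables, had the widest mRNA range of the 8, 1.47 log2 between its highest and lowest size means. The gene spans 925721 to 930445 on chromosome XV, on the Watson strand. Replicate A read 6.29, 6.88, 7.44, 7.93, 7.45, 7.54, 8.19 and 7.43 log2 CPM from 40 to 75 fl. Replicate B read 6.70, 6.72, 7.10, 7.51, 7.57, 7.58, 7.96 and 7.64 log2 CPM, and replicate C read 6.98, 6.65, 7.23, 7.17, 7.96, 7.79, 8.22 and 7.04 log2 CPM. All 6 libraries of 40 and 45 fl lay below all other 18, and the 70 fl library was the highest of its series in A, B and C. The mean was 8.12 ± 0.15 at 70 fl, against 6.66 ± 0.35 at 40 fl (SD, n = 3 each), and stood at 7.37 ± 0.30 in the largest cells. The sizes differed in edgeR with an adjusted p of 0.000931, and the slope was 0.16 (SE 0.03; adjusted p = 0.000496). The slopes of A, B and C were 0.17, 0.17 and 0.15, and the slope stayed past the threshold in all 8 alternatives run. The call across sizes was lost without replicate B (adjusted p = 0.0625) and without replicate C (adjusted p = 0.0581).

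**Figure D2:**
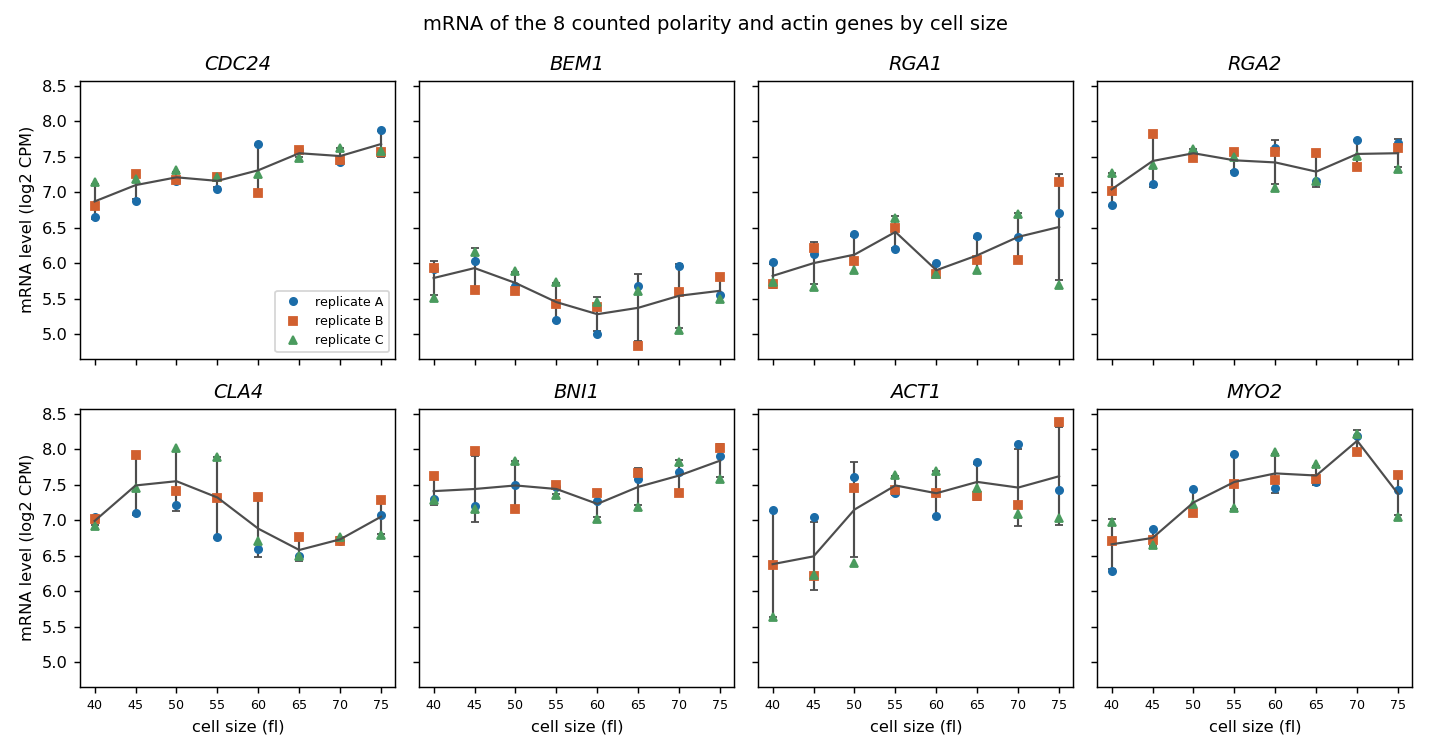
mRNA level of the 8 counted members in each library, in log2 CPM on the vertical axis, against cell size in fl on the horizontal axis. Points are the replicates A, B and C and the line joins the mean of each size; MYO2 climbs to 8.12 at 70 fl, and CLA4 has its highest mean, 7.55, at 50 fl and its lowest, 6.58, at 65 fl.

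For MYO2, the counted genes whose mRNA differed least from it over the 24 libraries, after centring each gene, were VPS53, NGG1 and GCR1. Their root mean square differences were 0.26, 0.27 and 0.29 log2, where the median over all genes was 0.63. A gene with no change at all would differ from MYO2 by 0.50. VPS53 and GCR1 also had their highest mean at 70 fl, and NGG1 had its highest at 75 fl. For CLA4 the nearest genes were RAD5 at 0.25 log2, CHS3 at 0.26 and NHA1 at 0.26, where the median over all genes was 0.60. A gene with no change at all would differ from CLA4 by 0.43. CHS3, the chitin synthase that builds the ring at the bud base, had its highest mean at 50 fl and its lowest at 65 fl. RAD5 was highest at 55 fl and lowest at 65 fl, and NHA1 was highest at 45 fl and lowest at 60 fl. Since these genes were picked for likeness, peaks at or near those of CLA4 and MYO2 follow from the choice.

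CDC42 (YLR229C) itself varied less than most ORFs in the authors' deposited table, which gives pooled mRNA at each size as log2 over the gene's mean and has no replicates and no test. The gene lies on chromosome XII, 604212 to 604787, on the Crick strand. Its values from 40 to 75 fl were 0.36, 0.00, -0.21, -0.05, -0.10, 0.02, -0.15 and 0.05. It stood highest in the smallest cells, and from 45 to 75 fl it stayed between -0.21 and 0.05. Its span of 0.56, or 1.48-fold, was wider than that of 6.83% of the 6383 ORFs with a value at all 8 sizes. BEM3 (YPL115C), the gene on chromosome XVI, 332100 to 335486, whose protein turns Cdc42 off, had 0.06, -0.69, -0.24, -0.17, -0.38, 0.12, 0.49 and 0.43 in the same order. It was lowest at 45 fl and highest at 70 fl, a span of 1.19, wider than 51% of ORFs.

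On this pooled scale the 10 members had a median span of 0.92 log2, where the median ORF had 1.17. The median was 1.02 among ORFs with read counts, as 8 of the members are, and 1.38 among ORFs without them. MYO2 had the widest span of the 10 at 1.74, wider than that of 78.7% of ORFs, followed by ACT1 at 1.48, wider than 68.7%. For 6 of the 8 counted members the size with the highest value was the same in the pooled table and in the counts. The pooled values are mRNA of this series with replicates pooled, so this match is no independent check.

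**Figure D3:**
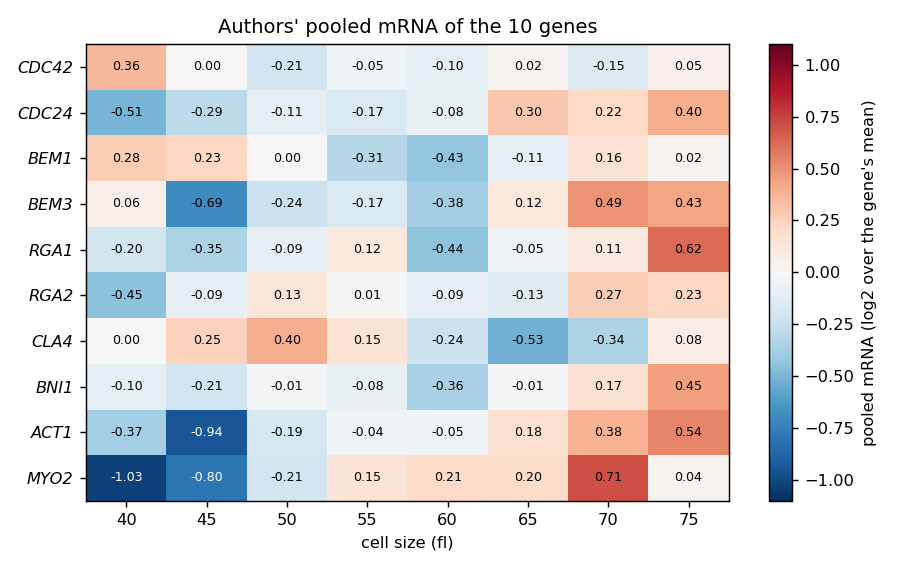
The authors' pooled mRNA values for the 10 genes, as log2 over each gene's mean, with genes down the page and cell size in fl across it; red is above the mean and blue below, and each cell gives its value. MYO2 has both the lowest value, -1.03 at 40 fl, and the highest, 0.71 at 70 fl, while CDC42 stays within -0.21 to 0.36.

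Levels can be set between genes on the authors' length-scaled log2 values, taken here as the median of 24 libraries. On this scale ACT1 stood apart in footprints at 11.12, above 95.8% of counted genes, whereas its mRNA at 7.18 was above 62.7%. The other 7 members had mRNA levels between 4.45 for RGA1 and 5.87 for RGA2, all under the median gene at 6.53. Their footprint levels ran from 2.66 for RGA1 to 5.04 for MYO2, where the median gene had 5.35. The log2 ratio of footprint to mRNA CPM within a pool, the translational efficiency, had a median of 3.74 for ACT1, higher than that of 99.2% of genes, and ranged from 2.01 to 4.66 over the 24 pools. The median efficiency was -0.05 for MYO2 and -0.18 for BEM1. It was -1.25 for BNI1, equal to the median gene at -1.25, and lower for CLA4 (-1.50), CDC24 (-1.70), RGA1 (-1.81) and RGA2 (-2.14).

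Footprints of ACT1 and MYO2 ran in opposite directions along size in replicate A and in replicates B and C. From 40 to 75 fl, ACT1 footprints in replicate A were 11.80, 11.64, 11.94, 11.81, 11.69, 11.43, 10.09 and 9.75 log2 CPM. Replicate B had 9.72, 9.79, 9.99, 10.93, 11.18, 11.07, 11.70 and 11.57 log2 CPM. Replicate C had 9.60, 9.75, 10.12, 10.59, 10.57, 11.40, 11.20 and 11.68 log2 CPM. At 75 fl replicate A was the lowest of the 3 and at 40 fl the highest. Between 75 and 40 fl the difference was -2.05 in A, 1.85 in B and 2.07 in C.

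MYO2 footprints in replicate A were 7.89, 7.81, 7.57, 7.66, 7.64, 7.18, 6.35 and 6.03 log2 CPM from 40 to 75 fl. Replicate B had 6.18, 6.55, 7.14, 7.47, 7.15, 7.98, 7.91 and 7.76 log2 CPM, and replicate C had 5.97, 5.98, 8.13, 7.19, 7.18, 7.73, 5.97 and 7.89 log2 CPM. The low value of replicate C at 70 fl rests on 3 reads. As with ACT1, replicate A was the highest of the 3 at 40 fl and the lowest at 75 fl.

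In a model with a slope for each replicate letter, the ACT1 footprint slopes were -0.27 (SE 0.07) in A, 0.31 (SE 0.06) in B and 0.31 (SE 0.06) in C. Those of MYO2 were -0.25 in A, 0.24 in B and 0.19 in C (SE 0.09 each). The slopes differed between letters for ACT1 (edgeR adjusted p = 2.37e-05) and MYO2 (adjusted p = 0.00808). These are 2 of the 8 counted members, against 19% of all 3301 genes, so the split was not confined to them. Among all genes, 945, or 28.6%, had a falling footprint slope in A and rising ones in B and C, where 297, or 9%, had this in mRNA. In mRNA the slopes of ACT1 and MYO2 were positive in every letter, and no counted gene had mRNA slopes that differed between letters in edgeR (0 of 3301 adjusted, 202 at an unadjusted p under 0.05, none of these a member). The cause of the footprint split was not tested. The sizes of the replicate A footprint libraries are those of the labels and were not checked independently. Each replicate A footprint and efficiency value by size therefore rests on those labels being right.

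**Figure D4:**
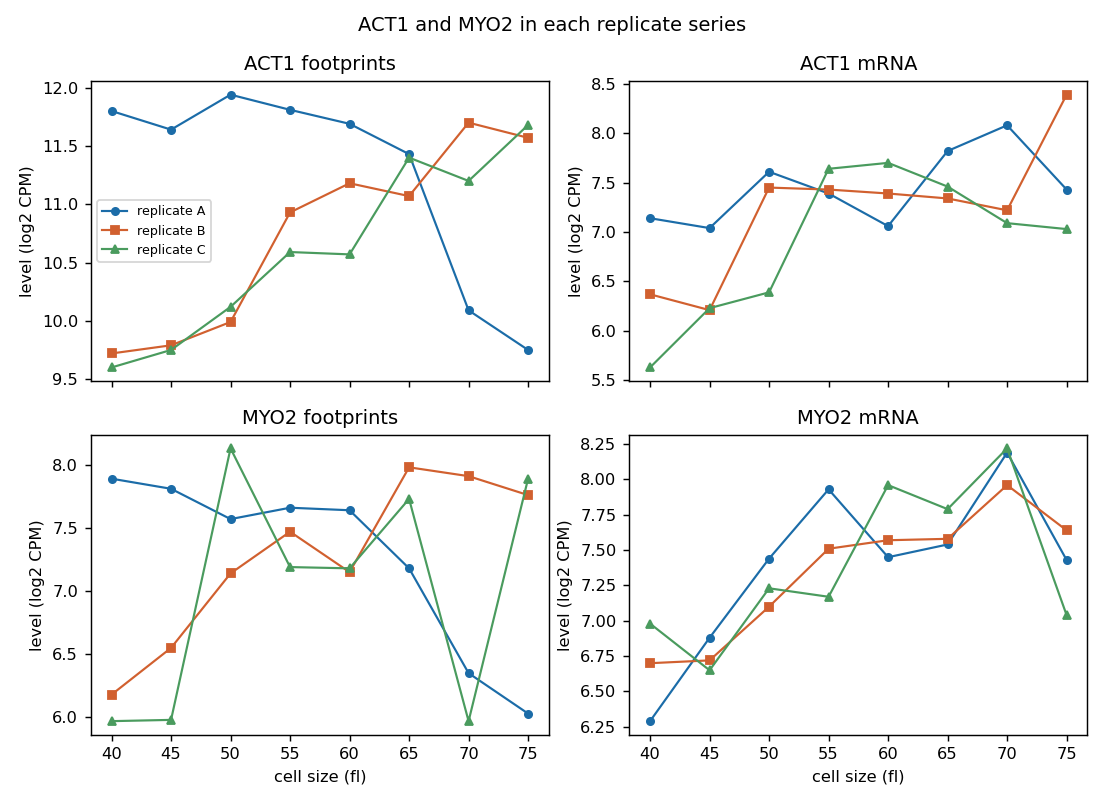
Levels of ACT1 (top) and MYO2 (bottom) in footprints (left) and mRNA (right), in log2 CPM on the vertical axis, against cell size in fl, with a line for each of the replicates A, B and C. In footprints the line of replicate A ends low, at 9.75 for ACT1 and 6.03 for MYO2 at 75 fl, while those of B and C end high; in mRNA all 3 letters have a positive slope for both genes.

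Over all 3 replicates no footprint slope was called. ACT1 had 0.08 (SE 0.07; edgeR adjusted p = 0.764) and MYO2 0.05 (SE 0.06; adjusted p = 0.85), and 0 of 8 members and 0% of all genes passed. At an unadjusted p under 0.05 there were 199 genes and 0 members, and DESeq2 also called 0 members. Without replicate A the footprint slopes were 0.28 (SE 0.03; adjusted p = 9.83e-07) for ACT1 and 0.20 (SE 0.07; adjusted p = 0.0342) for MYO2, where 23.8% of all genes were called, 8.82% as rising and 14.9% as falling. Translational efficiency along size gave no call for any member (0 of 8, with 0 genes in all by edgeR, 420 genes and 0 members at an unadjusted p under 0.05, and 0 members by DESeq2). Its slope was -0.09 (SE 0.08; adjusted p = 0.709) for ACT1 and -0.11 (SE 0.07; adjusted p = 0.524) for MYO2, and without replicate A it was 0.06 and 0.04.

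Depth sets what can be read from the footprints of the other members. The median was 2392 reads per library for ACT1 and 165 for MYO2, against 24 for RGA1, 42 for BEM1, 51 for CLA4, 52 for RGA2, 54 for CDC24 and 86 for BNI1. Libraries with 0 reads numbered 5 for RGA1, 3 for RGA2 and CLA4, 2 for CDC24 and BEM1 and 1 for BNI1. In the shallowest library a count of 0 allows a level of up to 114 CPM (3 counts of the library total, counting error only). For CDC24, BEM1, RGA1, CLA4 and BNI1 no difference in footprints along or across size was called, which does not show that there was none.

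RGA2 was the member whose footprints differed across sizes (1 of 8, against 0.515% of all genes; edgeR adjusted p = 0.0025), and the difference lay in 3 libraries. RGA2 had 157 of 259590 footprint reads in the 60 fl library of A, 169 of 116437 in that of 60 fl C and 77 of 155910 in that of 70 fl A. Without TMM scaling these are 605, 1450 and 494 CPM, against 0 to 61.8 CPM (median 36.9) in the other 21 libraries. The 60 fl library of replicate B, with 75 of 1521349 reads or 49.3 CPM, did not share the excess. In the same 3 libraries another gene, FAR11, took 9.65 to 25.1% of all counted footprint reads, against 0.0656 to 0.771% in the other 21; its part in the result was not tested. Without those 3 libraries RGA2 was not called (adjusted p = 1), which follows from leaving out its highest values. The call was also lost without replicate C (adjusted p = 1) or without the 6 libraries under 150000 reads (adjusted p = 0.359), 60 fl C among them. In edgeR the call stayed without replicate A (adjusted p = 3.03e-05), without B (adjusted p = 0.00172) and with a term for replicate letter (adjusted p = 0.0196). DESeq2 also gave it (adjusted p = 1.4e-09). Without replicate A, 60 fl C is the only library of the 3 that remains. The mRNA of RGA2 had no such excess, with 7.63, 7.57 and 7.06 log2 CPM at 60 fl in A, B and C.

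**Figure D5:**
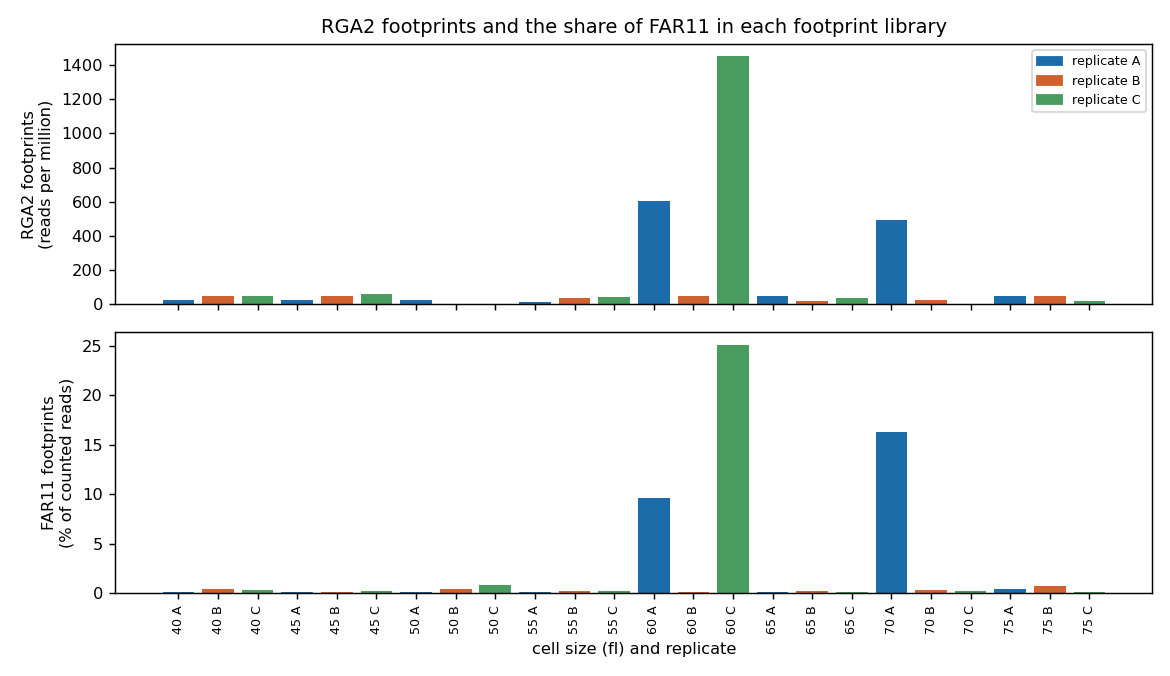
RGA2 in footprint libraries by cell size in fl and replicate, in CPM on the vertical axis. The libraries of 60 fl A, 60 fl C and 70 fl A reach 605, 1450 and 494, and the other 21 lie at 61.8 or lower.

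The same 3 libraries carried the only call in translational efficiency across sizes, again RGA2 (1 of 8 members, against 0.333% of all genes; edgeR adjusted p = 0.0293). Its efficiency was 1.94 and 4.05 log2 at 60 fl in A and C and 1.41 at 70 fl in A, against -1.92 at 60 fl in B. The efficiency call stayed without replicate A (edgeR adjusted p = 0.0381) and with DESeq2 (adjusted p = 0.000422). It was lost without replicate B (edgeR adjusted p = 0.0777) and without replicate C. With a term for each pool, which ties the footprint and mRNA libraries of the same cells, no gene was called and RGA2 had an adjusted p of 1.

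Other genes of the polarity and actin machinery, taken from 7 lists with the members left out, rose in mRNA more often than they fell. The lists were chosen with earlier results of these data known, so their counts against all genes are description and not an independent test. Of 95 listed genes 64 were counted, and of these 33 rose along size (51.6%) and 0 fell by edgeR, against 19.4% and 22.1% of all counted genes; 1 had a negative slope at an unadjusted p under 0.05, and DESeq2 called 37 as rising and 0 as falling. Their median slope was 0.08 log2 per 5 fl, that of the 8 counted members 0.06, and that of all genes 0.00. Across the alternatives run, the rising genes numbered 24 to 37 and the falling ones 0; the lowest number, 24, came without replicate A and without replicate C.

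Among 7 counted regulators and effectors of Cdc42, 5 rose, BEM2, BUD3, STE20, ZDS1 and MSB1. BUD3, which codes for an exchange factor for Cdc42 and a landmark for axial budding, had 6.81, 6.29 and 7.45 log2 CPM at 70 fl in A, B and C, against 4.21, 4.90 and 4.42 at 45 fl. Its range of 2.34 log2 exceeded that of each of the 8 counted members (edgeR adjusted p across sizes 0.000738; slope 0.29, SE 0.05). BEM2, a GTPase-activating protein gene, had 8.24 ± 0.06 at 70 fl, against 7.31 ± 0.03 at 40 fl (SD, n = 3 each; edgeR adjusted p = 0.00268). ZDS1 had 6.26 ± 0.22 at 75 fl, against 5.10 ± 0.33 at 45 fl (adjusted p = 0.0073). Of 10 bud site selection genes only BUD2 was counted, which codes for the GTPase-activating protein of the bud site GTPase Rsr1. Its mRNA was 7.91 ± 0.02 log2 CPM at 60 fl, against 5.89 ± 0.15 at 40 fl (SD, n = 3 each; adjusted p = 4.62e-05).

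In the polarisome and formin list 5 of 7 counted genes rose, BNR1, BUD6, SPA2, MSB3 and KEL1. BNR1, the formin gene related to BNI1 whose protein sits at the bud neck, had 8.09 ± 0.25 log2 CPM at 60 fl, against 6.40 ± 0.53 at 40 fl (SD, n = 3 each; edgeR adjusted p = 0.00712). KEL1 had 7.60 ± 0.09 at 70 fl, against 6.52 ± 0.40 at 40 fl (adjusted p = 0.00203), and MSB3, a Rab GTPase-activating protein gene, 6.88 ± 0.35 at 75 fl, against 5.57 ± 0.15 at 40 fl (adjusted p = 0.0315).

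Of 12 counted genes for actin-binding proteins 6 rose, CRN1, TPM1, TPM2, SCP1, ABP1 and CAP2. TPM2, a tropomyosin gene whose protein coats actin cables, had 10.54, 11.02 and 11.43 log2 CPM at 70 fl in A, B and C, against 8.31, 10.11 and 9.26 at 40 fl (edgeR adjusted p = 0.047). ABP1, an actin patch protein gene, had 6.76 ± 0.85 at 75 fl, against 5.28 ± 0.46 at 40 fl (adjusted p = 0.0479). The capping protein gene CAP2 had an adjusted p of 0.0588 across sizes. Of 16 counted genes for the Arp2/3 complex and for proteins of cortical actin patches 7 rose, ARP2, BBC1, MYO3, MYO5, PAN1, SLA1 and SLA2. SLA2, which links membrane and actin in endocytosis, had 8.68 ± 0.32 at 75 fl, against 6.88 ± 0.52 at 40 fl (adjusted p = 0.00585). MYO5, a class I myosin gene, had 6.93 ± 0.44 at 75 fl, against 5.90 ± 0.20 at 40 fl (adjusted p = 0.0185), and BBC1 had 7.86 ± 0.17 at 75 fl, against 6.73 ± 0.36 at 45 fl (adjusted p = 0.0221).

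Of 11 counted genes in the list of class V myosin, exocyst and secretory Rab genes, with MYO2 left out, 6 rose, MYO4, MLC1, SEC2, SEC8, SEC10 and SEC15. SEC2, which codes for the exchange factor of the vesicle Rab Sec4, peaked at the same size as MYO2. Its levels were 7.29 ± 0.10 log2 CPM at 70 fl, against 5.66 ± 0.64 at 40 fl (SD, n = 3 each; edgeR adjusted p = 2.69e-05), and its slope was 0.24 (SE 0.04; adjusted p = 2.97e-05). The exocyst subunit gene SEC8 had 6.65 ± 0.15 at 65 fl, against 5.61 ± 0.11 at 45 fl (adjusted p = 0.00448). In the list of Rho1 and related GTPases 3 of 10 rose, TUS1, PKC1 and RGD2. TUS1, an exchange factor gene for Rho1, had 6.59 ± 0.26 at 70 fl, against 5.44 ± 0.22 at 40 fl (adjusted p = 0.0173), while RHO2 (adjusted p = 0.0626) and RGD2 (adjusted p = 0.0674) did not pass across sizes. In footprints edgeR called 0 of the 64 genes across sizes (1 at an unadjusted p under 0.05, and 1 called by DESeq2) and 0 along size (2 at an unadjusted p under 0.05, and 0 by DESeq2). Footprint slopes that differed between replicate letters were called for 7 of the 64, against 19% of all genes.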

How the data were processed

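Per the submitters' processing notes, the tools were RSEM 1.2.20, TopHat2 2.1.0, SAMtools 1.3-1, cutadapt 1.8, Bowtie 1.1.2 and bcl2fastq 2.17.1.14, in no stated role, and the build was R64. The authors deposited raw read counts of 3301 genes, none of which had fewer than 10 reads in an mRNA library, a log2 table of length-scaled levels per library, and a log2 table of pooled mRNA relative to the gene's mean. The count tables' headers do not name the assay. All 24 columns of each lay closer to their own assay's block in the log2 table than to the other. Symbols came from a reference gene table of assembly R64 (3260 matched, 41 not). None of the 10 members overlaps another annotated gene. The handling of reads shared by related genes is not stated.

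The quasi-likelihood tests of edgeR 4.0.16 in R 4.3.3 were run on the counts, with TMM factors within each assay and Benjamini-Hochberg adjustment over all 3301 genes. Tests were an F-test across the 8 sizes, a slope per 5 fl, the interaction of assay with size over 48 libraries (translational efficiency) and that of replicate letter with slope. The SE given for a slope was derived from its test, as the absolute slope over the square root of the F statistic. The tests were checked on simulated data. Alternatives were DESeq2 1.42.0, median-of-ratios scaling, no filter, a replicate block, and leaving out replicates or libraries that were shallow or stood apart. Those that stood apart, 60 fl A, 60 fl C and 70 fl A, are the libraries with the RGA2 footprint excess. Leaving out the 40 fl B mRNA library was chosen after seeing the data. Genes named beside the members are the 3 of smallest p across sizes in each list and the 3 of most similar mRNA to each member called across sizes; FAR11 and the other list genes that rose were named after their values were seen. The members and lists were chosen with earlier results of these data known. The footprint and mRNA libraries of a pool come from the same cells and so are paired by origin; over genes their deviations correlated on average at 0.11, above 0.1 in 13 of 24 pools.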

Additional observations from a re-analysis of the deposited data

Results flagged for a closer look

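The footprint slope of ACT1 along size differed between replicate letters (edgeR adjusted p = 2.37e-05), at -0.27 in A, 0.31 in B and 0.31 in C. That of MYO2 also differed (adjusted p = 0.00808), at -0.25 in A, 0.24 in B and 0.19 in C. The size effect of RGA2 differed between footprints and mRNA (adjusted p = 0.0293), with the excess of footprints in the 60 fl libraries of A and C and the 70 fl library of A. Each was picked out by an interaction test, of letter and slope for ACT1 and MYO2 and of assay and size for RGA2. The RGA2 call was lost with a term for each pool, under which no gene was called.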

How the results depend on the processing

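In mRNA the calls across sizes numbered 1394 genes and 4 members with DESeq2, against 859 and 2 in edgeR, and 111 to 816 genes and 0 to 2 members with a replicate left out. The mRNA slope calls, 1373 genes and 5 members, ranged from 888 to 1011 genes and 2 to 4 members with a replicate left out; the slopes of CDC24 and MYO2 stayed past the threshold in all 8 alternatives. A replicate block by letter gave 912 genes across sizes and 1370 slopes in mRNA and changed no member's mRNA call. Libraries of the same letter at different sizes had deviations that correlated on average at 0.03 to 0.07, over 0.1 in 10 to 15 of 28 pairs. The letter was not taken to pair samples in the main tests. This average cannot show that the letter has no effect, since an effect that changes sign along size can cancel in it. Footprint slopes differed between letters in 628 genes.

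Footprint calls across sizes, 17 genes and 1 member, became 52 genes with DESeq2, 10 genes under the replicate block, 0 genes and 0 members without the libraries under 150000 reads, 1 gene and 0 members without the 60 fl A, 60 fl C and 70 fl A libraries, and 0 to 515 genes and 0 to 2 members with a replicate left out. Footprint slope calls, 0 genes and 0 members, reached 784 genes and 2 members without replicate A and were 0 without B or C. The ACT1 footprint slope ranged from -0.03 without B, through -0.01 without C, to 0.28 without A. The MYO2 footprint slope ranged from -0.06 without B, through 0.00 without C, to 0.20 without A.

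Efficiency calls across sizes, 11 genes and 1 member, became 36 genes with DESeq2 and 0 genes and 0 members under the replicate block by pool. They were also 0 genes and 0 members without the libraries under 150000 reads or without the 60 fl A, 60 fl C and 70 fl A libraries, and 0 to 30 genes and 0 to 1 members with a replicate left out. Efficiency slope calls, 0 genes, became 1 gene with median-of-ratios scaling, 127 genes with DESeq2, 4 genes without the libraries under 150000 reads and 0 to 28 genes with a replicate left out, with 0 members called in each. The efficiency slopes of ACT1 and MYO2 changed sign without replicate A, to 0.06 and 0.04, and were lowest without replicate B, at -0.18 and -0.23. The cause of these changes was not tested. The filter on low counts removed no gene. The footprint ranges of CDC24, BEM1, RGA1, RGA2, CLA4 and BNI1 widened with a prior count of 0.5, since each has libraries at 0 reads.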
